A study of Mus musculus with 2 samples.

Results

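The genes described here encode proteins that salivary and lacrimal glands secrete. They are Spt1, Dcpp1, Dcpp2, Dcpp3, Sbpl, Smr2, Smr3a, Pip, Car6 and Lpo, 10 of the 23997 gene rows in the deposited table, and each was found by an exact match of its symbol. Their RNA was measured in epithelial cells of the thymic medulla (mTECs) sorted by flow cytometry for a high level of MHC class II, taken from pooled C57BL/6 mice. One library carried the genotype label WT and the other Aire-/-, called Aire-KO here. The labels give no number, age or sex for the pooled mice and do not describe the Aire allele. Each genotype thus had 1 library, so there was no replicate check and no test, and every interval below covers counting error only.

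Salivary and lacrimal glands make their fluid in acini, whose cells package proteins into granules and release them into ducts. Many of these proteins guard mucosal surfaces, among them enzymes, lectins and mucin-like proteins. Medullary thymic epithelial cells also transcribe such tissue-restricted genes and display the products to developing T cells, and Aire is the nuclear protein on which much of this transcription depends. Salivary and lacrimal glands are among the organs attacked in some forms of Aire deficiency.

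Values are FPKM, fragments scaled to transcript length and library depth, so that levels of different genes can be compared. All gene rows together came to 523609 FPKM under the label WT and 551619 FPKM under the label Aire-KO, and the spacing of low values implied about 47100000 and 53800000 fragments. Aire transcript, the check of the targeted gene, stood at 220.6 FPKM under the label WT and 640.2 FPKM under the label Aire-KO. Since the allele is not stated, this neither supports nor opposes the labels, and all directions below go by library label. A list of 20 thymic epithelial genes served to describe the cells, and not all are particular to mTECs. Ly75, Psmb11 and Prss16 are known from the thymic cortex. Of the 20 genes, 0 were lower, 2 (Aire and Ciita) were higher and 18 were neither. H2-Aa, an MHC class II chain gene, stood at 8398 and 11948 FPKM. Of markers of other cells, 3 of 9 thymocyte genes were lower (sums 35.5 and 21.4 FPKM), 1 of 6 B cell genes was lower and 1 higher (49.7 and 52.7 FPKM), and 2 of 6 fibroblast and endothelial genes were lower and 1 higher (64.1 and 103.5 FPKM); their part in the results below was not tested. Here and below, paired values name the library labelled WT first, and a gene counts as lower or higher at a 2-fold difference after 0.1 FPKM is added to both values, given a mean of at least 0.5 FPKM. Over all genes with that mean, 20.5% were lower and 7.09% higher.

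The genes lie on 6 chromosomes, and the bases just upstream of their transcription starts are shown because most of them share a motif. Each line gives the 80 bases before the RefSeq start (GRCm38.p6, the same build as mm10), 5′ to 3′ on the gene's own strand, for the 8 genes that reached the minimum of 0.5 FPKM. Capitals mark every TATA, which reads the same on both strands.
Spt1 (chr15:103899313-103899392, minus strand): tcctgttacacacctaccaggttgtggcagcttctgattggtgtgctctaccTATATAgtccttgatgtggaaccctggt
Dcpp1 (chr17:23880796-23880875, plus strand): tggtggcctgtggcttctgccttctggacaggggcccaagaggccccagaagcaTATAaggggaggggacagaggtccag
Dcpp2 (chr17:23898642-23898721, plus strand): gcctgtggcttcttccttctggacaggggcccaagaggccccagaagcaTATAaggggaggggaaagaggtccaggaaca
Dcpp3 (chr17:23917378-23917457, plus strand): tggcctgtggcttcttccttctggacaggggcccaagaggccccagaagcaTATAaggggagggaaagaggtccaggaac
Sbpl (chr17:23955274-23955353, minus strand): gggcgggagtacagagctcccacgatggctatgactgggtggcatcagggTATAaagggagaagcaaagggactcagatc
Smr3a (chr5:88002445-88002524, plus strand): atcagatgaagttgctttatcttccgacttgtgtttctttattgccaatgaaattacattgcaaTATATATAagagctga
Car6 (chr4:150201136-150201215, minus strand): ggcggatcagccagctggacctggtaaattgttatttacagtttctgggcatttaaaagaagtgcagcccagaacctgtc
Lpo (chr11:87826115-87826194, minus strand): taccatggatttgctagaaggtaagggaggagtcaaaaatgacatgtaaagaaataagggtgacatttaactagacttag
The motif was present in 8 of the 10 upstream windows, Smr2 and Pip included, against 13.0% of 32851 windows of the same length over all RefSeq promoters. These 8 windows are not independent, because some belong to related copies. The 300-base promoters of Dcpp1, Dcpp2 and Dcpp3 were 93.8% to 96.4% identical, and those of Smr2 and Smr3a were 81.6% identical. The windows that lacked it belonged to Car6 and Lpo. In the other genes the first TATA began between 16 bases (Smr3a) and 31 bases (Dcpp2) before the start. The longer motif TATAAA occurred in 2 windows, those of Sbpl and Pip, against 3.37% of all windows on the gene's strand. All 10 promoters were poor in CG dinucleotides, with 0 to 4 in the 300 bases around the start. The median was 7 over all promoters, 6 over genes that were lower and 20 over genes that were neither lower nor higher. TATA was found in 19.1% of the windows of lower genes and in 6.12% of the windows of genes that were neither. The motif TATA was chosen with the expression values known, and a match of letters is a description, not a mapped site.

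In the library labelled WT, all 10 genes had a value above 0, over a range from 0.276 FPKM for Pip to 147.8 FPKM for Spt1. Spt1 stood at the 97.7th percentile of all gene rows, Lpo at the 97.5th and Sbpl at the 95.3rd. Dcpp1 followed at the 91.0th, Dcpp3 at the 85.2nd, Car6 at the 79.2nd, Dcpp2 at the 74.5th and Smr3a at the 59.1st. Smr2 and Pip, at the 27.9th and 27.3rd percentiles, were close to the limit of detection. So the group held both some of the more abundant transcripts of these cells and some that were barely detected.

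**Figure D1:**
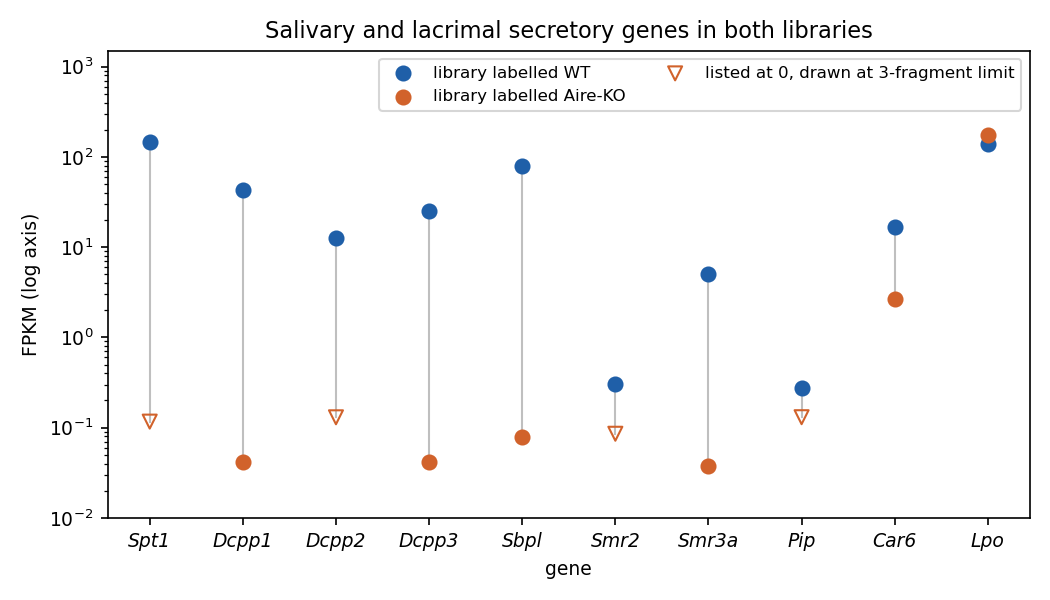
FPKM (log axis) of the 10 genes in the library labelled WT (blue) and the library labelled Aire-KO (orange), 1 point per library. Open triangles are genes listed at 0, drawn at the level that 3 fragments would give; 9 genes sit below their WT value and Lpo sits just above it.

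In the library labelled Aire-KO, 8 of the 10 genes were under 0.1 FPKM and 4 of those were listed at 0. Such values were common in the whole table. Sbpl, the highest of the 8, stood at the 29.4th percentile of all gene rows there. A gene listed at 0 shared rank 18715 of the 23997 gene rows. Of the 4 genes listed at 0, Spt1 and Dcpp2 reached the minimum, and 1.62% of all measured genes were likewise listed at 0. The sum of the 10 genes was 468.9 FPKM under the label WT and 177.2 FPKM under the label Aire-KO. Lpo made up 29.6% of the first sum and 98.4% of the second. Without Lpo the sums were 330.2 and 2.89 FPKM, and most of the latter was Car6. By the 2-fold rule 7 of the 8 genes at or above the minimum were lower, 0 were higher and 1, Lpo, was neither, whereas 20.5% of 15906 measured genes were lower and 7.09% higher. Of those 8 genes, 6 reached the minimum through the library labelled WT alone and so had to differ, which leaves Car6 and Lpo as the genes measured above it in both.

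Spt1 encodes a small salivary protein. RefSeq names it Mucl2 and places it on chromosome 15, 103895855 to 103899312 (minus strand). It stood at 147.8 FPKM, about 3123 estimated fragments, in the library labelled WT and was listed at 0 in the other. If that 0 is a true count, it allows a level of up to 0.116 FPKM (3 fragments). No 100-base stretch of its transcript, the length of the sequenced reads, occurred in an annotated transcript of another gene. Spt1 was thus the highest of the 10 under one label and was not detected under the other.

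The demilune cell and parotid protein genes Dcpp1, Dcpp2 and Dcpp3 lie in a row on chromosome 17, at 23880876 to 23882853, 23898722 to 23900787 and 23917458 to 23919441 (mm10, plus strand). They encode secreted salivary proteins of a lectin-related family. Dcpp1 stood at 42.7 and 0.0413 FPKM, about 858 fragments against 1. Dcpp2 stood at 12.6 FPKM, about 236 fragments, and was listed at 0 under the label Aire-KO, which allows up to 0.130 FPKM. Dcpp3 stood at 25.3 and 0.0419 FPKM, about 500 fragments against 1. All 3 were therefore well measured in one library and at or next to a single fragment in the other. The log2 ratio without a pseudocount was -10.02 for Dcpp1 (95% exact counting interval -15.34 to -7.55) and -9.24 for Dcpp3 (-14.56 to -6.77).

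The 3 copies are close relatives, and the split of reads between them is uncertain. Their transcripts were 90.0% to 93.4% identical and their 300-base promoters 93.8% to 96.4% identical. Of all 100-base stretches of the transcript, 19.9% for Dcpp1, 9.39% for Dcpp2 and 20.4% for Dcpp3 also occurred in another copy. Reads exchanged among the copies stay within their sum. That sum was 80.6 FPKM, about 1595 fragments, under the label WT and 0.0832 FPKM, about 2 fragments, under the label Aire-KO.

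Sbpl, the spermine-binding protein-like gene, lies beyond the Dcpp genes on the same chromosome (23953085 to 23955273, minus strand). From the start of Dcpp1 to the end of Sbpl the cluster spans 74.4 kb. Sbpl stood at 79.5 FPKM, about 2574 fragments, under the label WT and at 0.0784 FPKM, 3 fragments, under the label Aire-KO. The log2 ratio without a pseudocount was -9.99 (counting interval -12.28 to -8.45). Its relative Sbp, the spermine-binding protein gene, sits between Dcpp3 and Sbpl and stood at 26.2 and 0.138 FPKM. Sbpl shared 18.7% of its 100-base stretches with Sbp, so those 2 values also depend on how reads were split.

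Smr3a and Smr2 are androgen-regulated genes of the submandibular (submaxillary) gland that encode secreted proteins. They lie 78.0 kb apart on chromosome 5, at 88002525 to 88008534 and 88086556 to 88109053 (plus strand). Smr3a stood at 5.07 and 0.0374 FPKM, about 106 fragments against 1, a log2 ratio without a pseudocount of -7.08 (counting interval -12.33 to -4.50). Of its 100-base stretches, 40.5% also occurred in the annotated transcript Gm28434. Smr2 stood at 0.304 FPKM, about 9 fragments, and was listed at 0 under the label Aire-KO, which allows up to 0.0855 FPKM. Of the 4 Smr2 isoforms, NM_001252680 carried the whole value and 3 were listed at 0 in both libraries. Both genes were thus lower in FPKM in the library labelled Aire-KO, but Smr2 rests on few fragments.

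Pip, the prolactin-induced protein gene, encodes a secreted glycoprotein of exocrine glands (chromosome 6, 41847549 to 41852062, plus strand). It stood at 0.276 FPKM, about 5 fragments, under the label WT and was listed at 0 in the other library, which allows up to 0.130 FPKM. The upper end of its counting interval was a log2 ratio of -0.17, so a difference of 2-fold was not resolved at this depth.

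Car6 encodes the secreted carbonic anhydrase of saliva, which speeds the exchange of carbon dioxide and bicarbonate (chromosome 4, 150187016 to 150201135, minus strand). It stood at 16.6 FPKM, about 1075 fragments, under the label WT and at 2.69 FPKM, about 204 fragments, under the label Aire-KO. That is a 6.16-fold difference, with a log2 ratio of -2.58 on the scale with 0.1 FPKM added. Without that addition it was -2.62 (counting interval -2.84 to -2.40). Car6 was the one lower gene of the group that kept more than a trace, at the 53.5th percentile of all gene rows in the library labelled Aire-KO.

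Lpo encodes lactoperoxidase, a haem enzyme of saliva, tears and milk that turns thiocyanate into an antimicrobial oxidant (chromosome 11, 87806428 to 87826114, minus strand). It stood at 138.7 FPKM, about 17856 fragments, under the label WT and at 174.3 FPKM, about 25918 fragments, under the label Aire-KO. The log2 ratio was 0.33 (counting interval without a pseudocount 0.30 to 0.36). Across all genes averaging at least 10 FPKM the median log2 ratio was 0.17, and relative to that median the Lpo ratio was 0.16. Lpo thus ranked near Spt1 under the label WT, but Spt1 was listed at 0 and Lpo went from rank 602 to rank 481 of all gene rows. Apart from Smr2, each of the genes had 1 isoform row, so gene and isoform values were the same, and 7 of the 8 isoforms at the minimum were lower, against 20.1% of all measured isoforms.

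**Figure D2:**
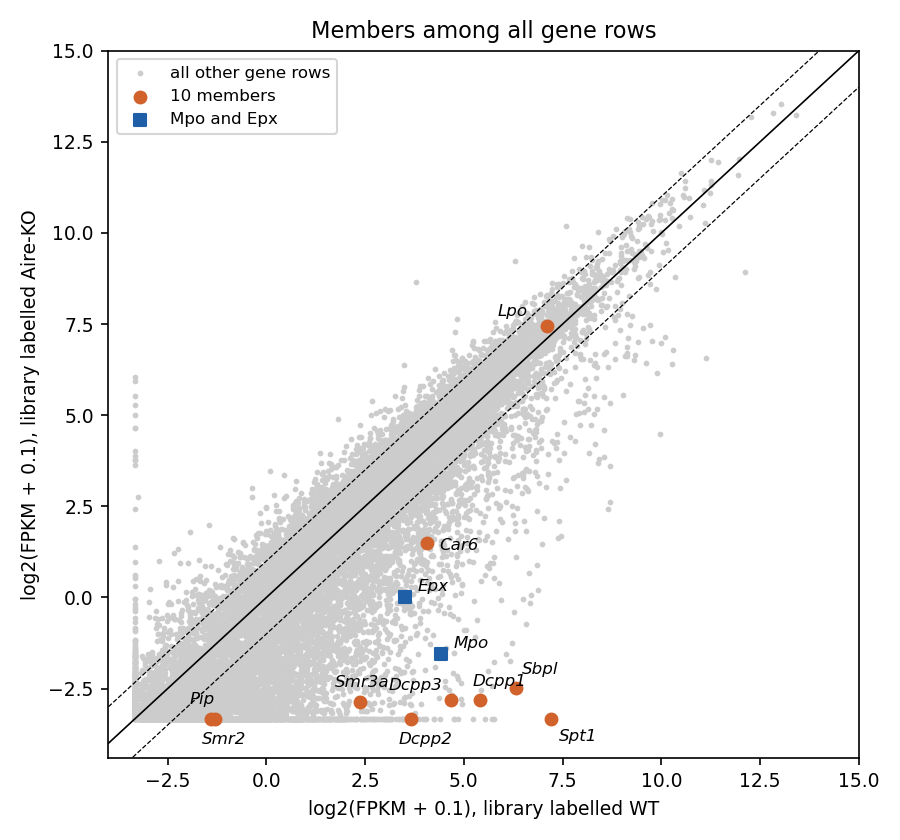
Each point is a gene row, with log2(FPKM + 0.1) in the library labelled WT on the x axis and in the library labelled Aire-KO on the y axis; the solid line marks equal values and the dashed lines a 2-fold difference. Lpo lies within the dashed lines at the upper right, Car6 below them, and Mpo, Epx and the other 8 genes (orange) further down or along the bottom edge.

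The authors' deposited table called 70 genes different, among them 1 of the 10, Dcpp2, with q of 0.0297. For the others named here, q in the authors' deposited table was 0.661 for Spt1, 0.708 for Sbpl, 0.795 for Dcpp1, 0.717 for Car6 and 0.999 for Lpo. Those values compare a pair of libraries and carry no information on the spread between animals.

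The genes next to each locus were taken as the 5 nearest rows on either side in the gene table, where the chromosome had as many. Of 31 different neighbours at the minimum, 17 were lower, 3 higher and 11 neither, or 54.8% lower against 20.5% of all measured genes. Of the 17, 10 were under 0.5 FPKM in the library labelled Aire-KO and so reached the minimum through the other library alone, as did 1538 of the 3260 lower genes in the whole table (47.2%). With 10 rows on either side, 29 of 73 (39.7%) were lower.

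Lpo lies between the related peroxidase genes Mpo and Epx, which had other values. Mpo, the myeloperoxidase gene of neutrophil granules, ends 2015 bp from the end of Lpo, on the opposite strand. It stood at 21.5 and 0.241 FPKM, about 2589 and 34 fragments, a log2 ratio without a pseudocount of -6.48 (counting interval -6.99 to -5.97). Epx, the eosinophil peroxidase gene, lies 37.9 kb away on the other side and stood at 11.3 and 0.900 FPKM, about 1323 and 122 fragments, or -3.64 on the same log2 scale (-3.93 to -3.38). Mks1, a ciliary gene between Lpo and Epx, stood at 4.92 and 5.52 FPKM and was neither. On the far side of Mpo, Bzrap1 was higher at 6.97 and 20.5 FPKM. So Lpo was neither lower nor higher while a related gene on each side was lower.

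Mpo and Epx are also markers of granulocytes. In a list of 9 granulocyte granule genes chosen after these values were seen, 6 of the 8 at the minimum were lower and 0 higher. The 6 made up 75%, against 20.5% of all measured genes, but 3 of the 6 reached the minimum through the library labelled WT alone. The summed level of the list was 1513 and 488.0 FPKM. Within it S100a9 stood at 342.7 and 13.9 FPKM and Ngp at 18.5 and 0.391 FPKM, but the eosinophil granule genes Prg2 and Prg3 were neither, at 260.3 and 340.8 FPKM and at 30.2 and 41.0 FPKM. Elane, the neutrophil elastase gene, stood at 0.375 FPKM and was listed at 0 under the label Aire-KO, as was Ctsg, which stood at 1.82 FPKM. Of 7 dendritic cell and macrophage markers at the minimum 4 were lower (57.1%) and 0 higher, with sums of 728.6 and 489.0 FPKM. Of the 4, 1 reached the minimum through the library labelled WT alone. Itgam, which neutrophils also express, stood at 9.40 and 0.614 FPKM. The part of such cells in the Mpo and Epx values was not tested. In bulk RNA, fewer cells of a type and less RNA per cell cannot be told apart.

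**Figure D3:**
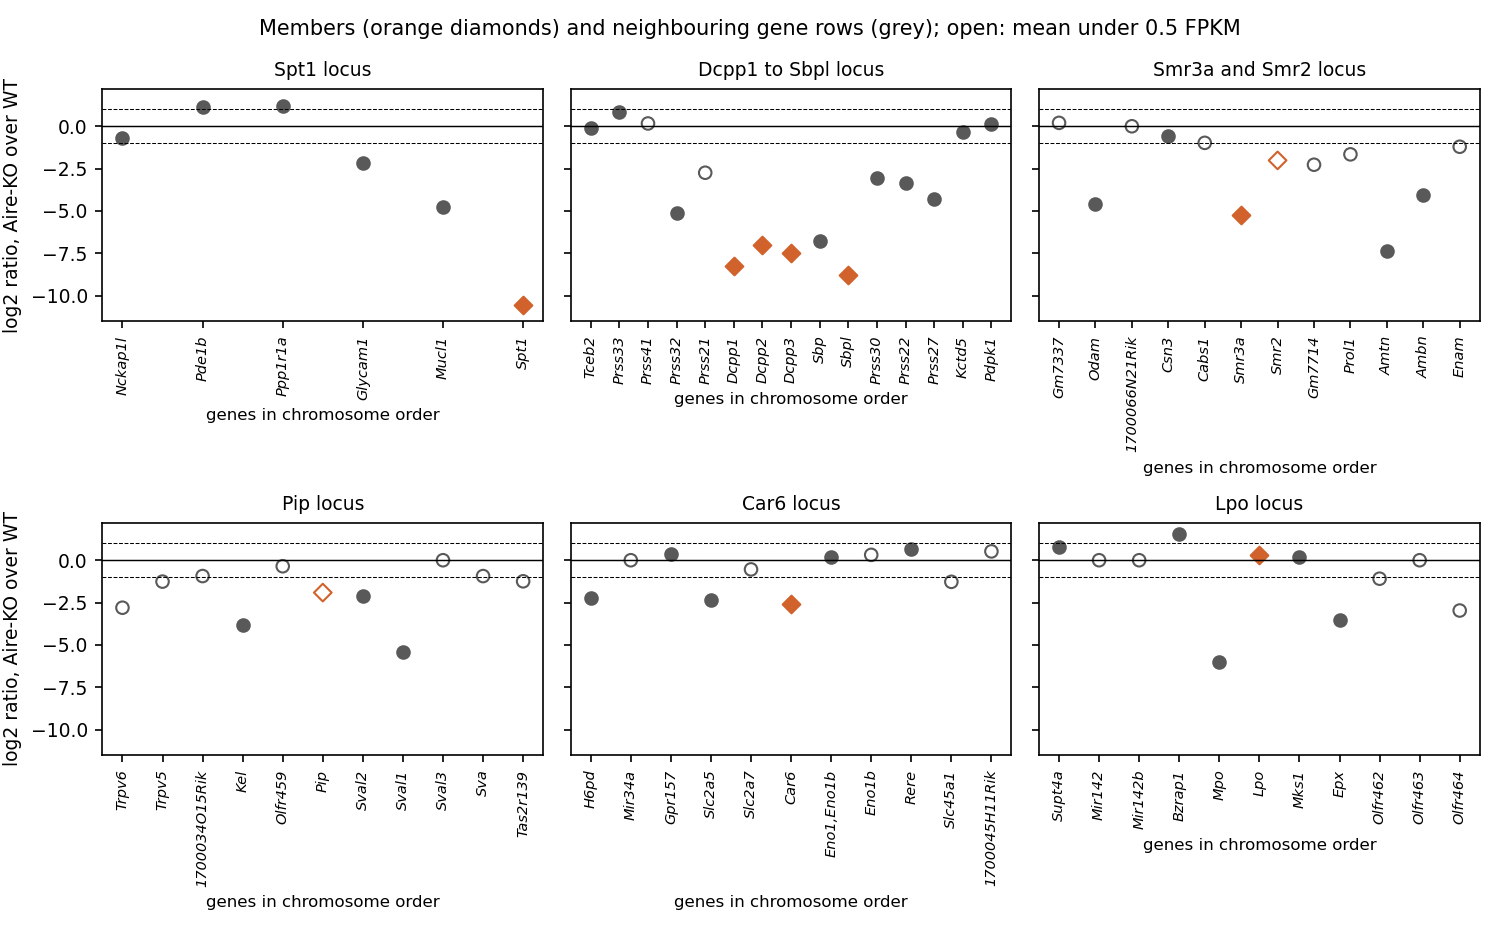
Log2 ratio, Aire-KO over WT with 0.1 FPKM added, of the 10 genes (orange diamonds) and of the 5 gene rows on either side in chromosome order (grey circles), with open symbols for a mean under 0.5 FPKM. Lpo lies near 0 between lower Mpo and lower Epx, whereas Dcpp1 to Sbpl form a run of lower genes; values of genes listed at 0 depend on the 0.1 FPKM added.

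At the chromosome 17 cluster 5 of the 9 neighbours at the minimum were lower (55.6%, against 20.5% of all measured genes), 0 higher and 4 neither. Of the 5, 2 reached the minimum through the library labelled WT alone. Besides Sbp, the lower neighbours included the serine protease genes Prss30 (17.8 and 2.10 FPKM) and Prss27 (17.9 and 0.810 FPKM). At the Smr3a and Smr2 locus 3 of 4 were lower, namely Amtn and Ambn, which encode enamel matrix proteins, and Odam, which encodes a protein of the ameloblast and gum attachment. Amtn stood at 16.2 FPKM and Odam at 2.26 FPKM, both listed at 0 under the label Aire-KO, and Ambn stood at 1.72 and 0.0110 FPKM. All 3 reached the minimum through the library labelled WT alone, so the count adds nothing to these values. Beside Pip, its relatives Sval1 and Sval2 and the blood group gene Kel, 3 of 3 measured, were all lower, but Sval2 alone was above 0.5 FPKM in both libraries. Sval1 stood at 7.83 and 0.0826 FPKM and Sval2 at 7.02 and 1.53 FPKM, so both relatives were more abundant than Pip itself.

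Next to Spt1 the mucin-like gene Mucl1 was lower, at 30.3 and 0.995 FPKM, while Pde1b (7.53 and 16.4 FPKM) and Ppp1r1a (5.16 and 11.8 FPKM) were higher. Around Car6 the hexose-6-phosphate dehydrogenase gene H6pd (13.6 and 2.87 FPKM) and the fructose transporter gene Slc2a5 (1.45 and 0.202 FPKM) were lower, and 3 others were neither. Neighbours thus differed in both directions at the Spt1 and Lpo loci and were lower or neither at the other loci, by the 2-fold rule without centring. Pde1b and Ppp1r1a passed that rule narrowly, at log2 ratios of 1.11 and 1.17. The median over genes averaging at least 10 FPKM was 0.17.

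Other secreted gland proteins were taken from lists by organ. The list of further salivary genes held 25 symbols, among them Mucl2, the RefSeq name of Spt1, which was not found under that symbol. Of the 25, 23 were in the table and 16 reached the minimum. Of these 15 were lower and 0 higher, and 1, the amylase gene Amy1, was neither at 0.858 and 0.556 FPKM. The lower genes made up 93.8%, whereas over the whole table they made up 20.5%, and 5 of the 15 reached the minimum through the library labelled WT alone. Their median log2 ratio was -4.01, against 0.05 over all measured genes. The antibacterial proteins Wfdc2 (681.1 and 129.2 FPKM) and lysozyme Lyz1 (635.3 and 91.9 FPKM) kept substantial levels in the library labelled Aire-KO, whereas the trefoil peptide gene Tff3 stood at 400.8 and 5.32 FPKM. Bpifa2, the parotid secretory protein gene, stood at 7.37 FPKM and was listed at 0. Of 21 lacrimal and other exocrine genes in the table, 7 reached the minimum and 7 were lower, but 5 of these were listed at 0 under the label Aire-KO and so had to be. In all, 19 of the 21 were listed at 0 under the label Aire-KO, 4 of them under both labels. Over the whole table, genes listed at 0 under the label Aire-KO shared rank 18715 of the 23997 gene rows. The airway and gland protein gene Bpifa1 stood at 957.2 and 71.0 FPKM, the secretoglobin gene Scgb1c1 at 99.8 and 23.8 FPKM and the lipocalin gene Lcn11 at 8.84 FPKM and 0, with Mup4 at 5.78 FPKM and 0.

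The enzyme families of Car6 and Lpo held both lower genes and genes that were neither. Among 15 other carbonic anhydrase genes, 11 reached the minimum, of which 8 were lower (72.7%, against 20.5% of all measured genes), 0 were higher and 3 neither. Of the 8, 3 reached the minimum through the library labelled WT alone. Their median ratio was -2.58 on the log2 scale. Car12 stood at 28.9 and 5.58 FPKM, the membrane-bound Car4 at 30.8 and 1.19 FPKM, the cytosolic Car2 at 22.2 and 2.77 FPKM and Car1, best known from red cells, at 10.3 and 0.0364 FPKM. Among 10 genes of other haem peroxidases, dual oxidases and their maturation factors 8 reached the minimum, and 4 were lower (50%), 0 higher and 4 neither, with 1 of the 4 lower genes, Mpo, past the minimum through the library labelled WT alone. The prostaglandin synthase genes Ptgs2 (191.2 and 270.3 FPKM) and Ptgs1 (15.5 and 9.91 FPKM) and the peroxidasin gene Pxdn (8.90 and 14.8 FPKM) were, like Lpo, neither. In the jacalin-related lectin family both other genes were lower, Sbp, which had to be, as given above, and the zymogen granule protein gene Zg16 at 54.6 and 1.35 FPKM.

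Most genes for the machinery and regulation of gland cells were neither lower nor higher. Lower genes made up 20.5% of all measured genes, 33.3% of thymocyte markers and 16.7% of B cell markers at the minimum. The lists are small, so their shares rest on few genes. Of 17 fluid secretion genes at the minimum, 6 were lower (35.3%), 0 were higher and 11 neither, and the median ratio was -0.75 on the log2 scale. Aqp5, the water channel of acinar cells, stood at 14.0 and 1.04 FPKM and the anion exchanger gene Slc4a9 at 5.41 and 1.05 FPKM. The sodium pump subunit gene Atp1b1 was lower at 257.0 and 92.3 FPKM, while the calcium release and entry genes Itpr3 (16.6 and 11.7 FPKM) and Stim1 (15.1 and 8.57 FPKM) were neither. Of 14 gland regulators 5 were lower (35.7%, with 2 past the minimum through the library labelled WT alone), 0 were higher and 9 neither, and their median was -0.55. Spdef, a regulator of secretory cells, stood at 4.73 and 0.257 FPKM and Sox10 at 1.96 and 0.109 FPKM, whereas Xbp1 (84.1 and 60.8 FPKM) and Ehf (61.3 and 39.6 FPKM) were neither. The difference between these lists and the secreted products was not tested.

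**Figure D4:**
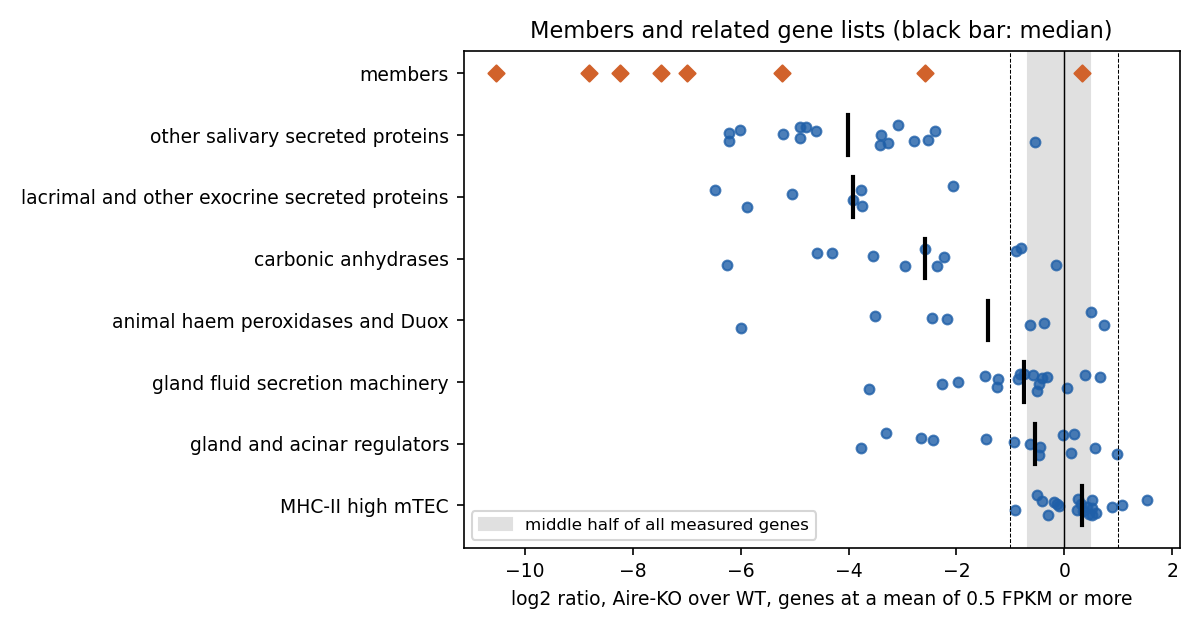
Log2 ratio, Aire-KO over WT with 0.1 FPKM added, of each gene at a mean of 0.5 FPKM or more in the lists named at the left, with the 10 genes reduced to the 8 that reached the minimum (orange diamonds), black bars at list medians and the grey band spanning the 25th to 75th percentile of all measured genes. Salivary products lie mostly left of the dashed 2-fold line with a median of -4.01. Regulators straddle it with a median of -0.55, and genes of the list labelled MHC-II high mTEC have a median of 0.33. Of the 7 lacrimal genes, 5 were listed at 0, so their positions depend on the 0.1 FPKM added.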

How the data were processed

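Polyadenylated RNA was sequenced as 100-base pairs from 1 library per genotype. The authors deposited a gene and an isoform table in FPKM, made with TopHat2 and Cuffdiff on mm10 per the submitters' processing notes. The notes name no versions, annotation release or scaling. The tables also hold the authors' deposited p-value and q-value per row. In 5 rows the authors' tool gave no estimate, and these were left out.

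Ratios, calls and intervals were computed in Python 3.11.15 with scipy 1.17.1, and alignments with Biopython 1.88. Fragment numbers are estimates. For single-isoform genes of 500 bp or more, FPKM times the GENCODE M21 transcript length less 190 bp (WT) or 160 bp (Aire-KO) fell on multiples of 1 step, with 78.4% of 815 and 77.5% of 1179 low values within 0.1 of a whole number. Step and length were fitted to those values. Intervals are exact conditional binomial at 95%. The procedure was tested on simulated data.

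The genes and lists were chosen with earlier results of these data known. From each list the text names the 3 genes with the highest mean and the 2 with the largest ratios, and at each locus up to 3 neighbours past the 2-fold rule by mean FPKM; others (Mks1, Prg3, Elane, Ctsg) were chosen after their values were seen, and 1 gene the rule names is not reported here. Like genes were the 3 nearest in log2(FPKM + 0.1), leaving out predicted, Rik, LOC and small-RNA names. Loci are the authors', counted from 1, except Spt1, from RefSeq. Alternatives changed pseudocount, minimum, fold, scaling, table and neighbourhood.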

Additional observations from a re-analysis of the deposited data

How the results depend on the processing

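No paired analysis was possible because each genotype had 1 library. The 7 lower genes stayed 7 with 0.01 or 1 FPKM added, equal totals, centring, isoform sums, a minimum mean of 2 FPKM or a 4-fold rule, and became 9 without a minimum. The lower share of all genes, 20.5% by the main rule, was 21.5% with equal totals, 22.7% with centring and 15.2% with 1 FPKM added. It was not computed for the other alternatives, so those counts have no share to be read against. Without the 3 Dcpp copies, an alternative chosen after seeing the data, 4 were lower, fewer by construction. Lower neighbours numbered 17, or 29 with 10 rows on either side, and 17 with 1 FPKM added. Lower genes over the related lists numbered 49 of 77, 49 with 1 FPKM added and 69 without a minimum. Lower isoforms numbered 7, 7 with 1 FPKM added and 9 without a minimum. Of 50 ratios of single genes under 5 alternatives, 40 lay within the gene's counting interval and 0 changed sign. Part of this was fixed in advance. The 10 ratios from isoform sums equalled the main values, because 1 isoform row carried each gene. For genes listed at 0 the interval had no lower end, and equal totals leave a 0 unchanged. With 1 FPKM added, 8 lay outside it, nearer to 0, among them Dcpp1 at -5.39, Car6 at -2.25 and Smr2 at -0.38. The Lpo ratio moved from 0.33 to 0.25 with equal totals and to 0.16 with centring. Over all genes, 1128 were higher, but 729 with centring and 701 with 1 FPKM added. Depth limits Pip and Smr2, and levels of genes with 0 to 3 fragments are not ordered.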

Other observations

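Markers of other salivary gland cells, duct and myoepithelium, differed in both directions. Of 7 such genes at the minimum, 5 were lower (71.4%, against 20.5% of all measured genes), 1 higher and 1 neither. Of the 5, 3 reached the minimum through the library labelled WT alone. The duct protease gene Klk1 stood at 314.3 and 32.7 FPKM and the smooth muscle gene Cnn1 at 6.27 and 0.0914 FPKM. The contractile genes Acta2 (40.4 and 59.7 FPKM) and Myh11 (22.5 and 45.8 FPKM) were neither and higher, respectively.

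Likeness was sought among named genes only, leaving out predicted and small-RNA rows. Nearest to Spt1 in the values of both libraries were the somatostatin gene Sst (52.7 FPKM and listed at 0), Defb19 (46.3 FPKM and listed at 0) and Hba-x (52.1 and 0.0858 FPKM). Those nearest to Lpo were Prelid1 (141.0 and 175.4 FPKM), Skp1a (136.0 and 172.8 FPKM) and Itm2c (136.8 and 179.5 FPKM). The genes nearest to Spt1 were less close, at distances of 1.49 to 1.75 on the log2 scale, against 0.025 to 0.047 for Lpo. Likeness was measured over 2 libraries only.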
